A study of Mus musculus with 7 samples.

Results

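The 10 genes described here are used as markers of the endothelial lineage, the cells that line blood vessels: Pecam1, Cdh5, Cldn5, Kdr, Tek, Tie1, Erg, Sox17, Emcn and Vwf. Whether MuSCs or other cells also use any of them was not tested. The genes were chosen by name as a purity check of sorted muscle stem cells (MuSCs). Earlier results of these data were known by then, but the measured values of the genes were not used in the choice. They are 10 of 21887 protein-coding genes on chromosomes 1 to 19, X and Y. For each gene, the accessible regions that overlapped its RefSeq span on mm10 (GRCm38) or the 10 kb on both sides were collected. A peak within 1 kb of an annotated transcription start site (TSS), or of the outer end of the span, was taken as a promoter peak.

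The libraries are ATAC-seq, an assay in which the Tn5 transposase cuts and tags DNA where chromatin is open. Each was made from 5000 MuSCs sorted from the hindlimb muscles of a male mouse of 5 to 6 weeks. There were 4 Nedd4L-cKO libraries, from Nedd4L fl/fl Pax7 cre/+ mice on a C57BL/6 background. In these mice an exon of the ubiquitin ligase gene Nedd4l, flanked by loxP sites, is deleted in cells that express Pax7. Per the paper, the gene is still transcribed but its product is catalytically inactive. There were 3 WT libraries from mice matched for age and sex, and whether these carried Cre or the floxed allele was not given in the sources used here. The deletion is limited by design to Pax7-expressing cells and their descendants. The sorted gate was ITGA7+/Hoechst+/CD31-/CD45-/CD11b-/SCA1-. CD31 is the product of Pecam1, so 1 of the 10 genes was itself used to exclude cells.

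Endothelial cells hold on to each other through adhesion and tight junction proteins, read growth factors through the VEGF and angiopoietin receptors, and are kept in their identity by ETS and SOX family transcription factors. Muscle is densely supplied with capillaries, and MuSCs lie close to them under the basal lamina of the fibre. Endothelial cells are therefore among the cells that a muscle digest holds beside MuSCs. Open chromatin at a promoter does not by itself mean that a gene is transcribed, and many promoters rich in CpG are open in cells that do not use the gene.

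Promoters from both kinds are shown to allow their sequences to be read beside the calls: Kdr, Tek, Cldn5 and Erg had a promoter peak in every library, and Emcn and Tie1 had none in any. Each line holds the 250 bases before a TSS, 5′ to 3′ on the strand of the gene, from RefSeq on GRCm38.p6, and capitals mark each CpG.
Kdr: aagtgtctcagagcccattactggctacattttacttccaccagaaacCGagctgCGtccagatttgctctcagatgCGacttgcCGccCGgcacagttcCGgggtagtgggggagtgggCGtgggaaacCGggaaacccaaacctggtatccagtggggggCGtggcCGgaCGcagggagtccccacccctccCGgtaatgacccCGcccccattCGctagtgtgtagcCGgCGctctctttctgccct
Tek: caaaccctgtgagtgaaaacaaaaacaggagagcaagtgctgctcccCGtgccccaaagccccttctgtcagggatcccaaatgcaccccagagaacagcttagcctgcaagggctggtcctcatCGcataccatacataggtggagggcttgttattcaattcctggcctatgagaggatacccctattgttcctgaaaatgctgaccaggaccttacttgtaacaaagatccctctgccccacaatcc
Cldn5: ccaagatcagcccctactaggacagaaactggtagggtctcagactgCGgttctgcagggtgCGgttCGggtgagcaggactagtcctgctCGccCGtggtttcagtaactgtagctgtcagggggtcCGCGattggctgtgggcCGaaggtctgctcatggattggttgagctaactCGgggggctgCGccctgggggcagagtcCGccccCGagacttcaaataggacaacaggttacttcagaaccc
Erg: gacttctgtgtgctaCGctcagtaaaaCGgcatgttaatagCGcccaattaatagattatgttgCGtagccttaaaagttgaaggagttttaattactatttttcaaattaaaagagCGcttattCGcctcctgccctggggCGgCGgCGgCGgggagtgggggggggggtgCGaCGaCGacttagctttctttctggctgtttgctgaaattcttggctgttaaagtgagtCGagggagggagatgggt
Emcn: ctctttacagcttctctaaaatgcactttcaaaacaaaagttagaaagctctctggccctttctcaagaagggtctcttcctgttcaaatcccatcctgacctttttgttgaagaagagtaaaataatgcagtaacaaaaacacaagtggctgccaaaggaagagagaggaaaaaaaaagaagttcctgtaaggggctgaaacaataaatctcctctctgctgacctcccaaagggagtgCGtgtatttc
Tie1: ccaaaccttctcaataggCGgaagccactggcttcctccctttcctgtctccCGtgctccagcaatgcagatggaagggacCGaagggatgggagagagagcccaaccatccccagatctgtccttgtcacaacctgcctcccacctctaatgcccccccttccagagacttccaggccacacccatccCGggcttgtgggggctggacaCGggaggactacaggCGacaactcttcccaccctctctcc
The Kdr stretch lies at chr5:75978456-75978705 on the minus strand and holds 16 CpG. The Tek stretch lies at chr4:94739039-94739288 on the plus strand and holds 2. Both sit inside the accessible region called over the promoter. The Cldn5 stretch, at chr16:18776597-18776846 on the plus strand, holds 12 CpG. The Erg stretch, at chr16:95586594-95586843 on the minus strand, holds 14. In these genes the peaks began just inside the gene, 39 to 400 bp from the TSS of Cldn5 and 126 to 523 bp from the nearest TSS of Erg. The Emcn stretch, at chr3:137340828-137341077 on the plus strand, holds 1 CpG, and the Tie1 stretch, at chr4:118489850-118490099 on the minus strand, holds 6. The sequence table matched 6 of the 10 genes. Pecam1, Cdh5, Vwf and Sox17 were not matched.

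The depth and the number of peaks set the limit of what could be called. MACS2 kept 14.4 M tags (mega) in the shallowest library, WT replicate 3, and 20.1 M in the deepest, Nedd4L-cKO replicate 4. It called 69302 to 79158 broad peaks per Nedd4L-cKO library, the most in replicate 4, and 71575 to 72350 per WT library. WT replicate 3 was the only library of lane 2. The window of the targeted gene, Nedd4l, held 31, 34, 33 and 35 peaks in Nedd4L-cKO and 34, 34 and 33 in WT (two-sided p = 0.8286 by an exact permutation test), which does not show whether the allele was recombined. The labels give the libraries as separate samples, and p-values measure the spread between them. A gene without a peak is one at which no signal passed the calling threshold of the library, which is not the same as closed chromatin. In bulk libraries, fewer cells of a type and less open chromatin per cell cannot be told apart.

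Promoter calls were the same in all libraries. Every library, of either genotype, held a promoter peak at the same 4 of the 10 genes: Kdr, Tek, Erg and Cldn5. Of 21440 protein-coding genes with a placed TSS, 63.4% had a promoter peak in all 7 libraries. The other 6 genes, Pecam1, Cdh5, Tie1, Emcn, Vwf and Sox17, had no promoter peak in any library, against 31.3% of all genes. For Pecam1, Cdh5, Vwf and Sox17 the outer end of the span was the only TSS used. A peak at a start site deeper in these genes could not be counted as a promoter peak. The calls therefore divided the list into genes open everywhere and genes called nowhere, and 0 of the 10 differed between libraries. Leaving out any 1 library, including Nedd4L-cKO replicate 4 or WT replicate 3, gave 4 and 6 as well.

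**Figure D1:**
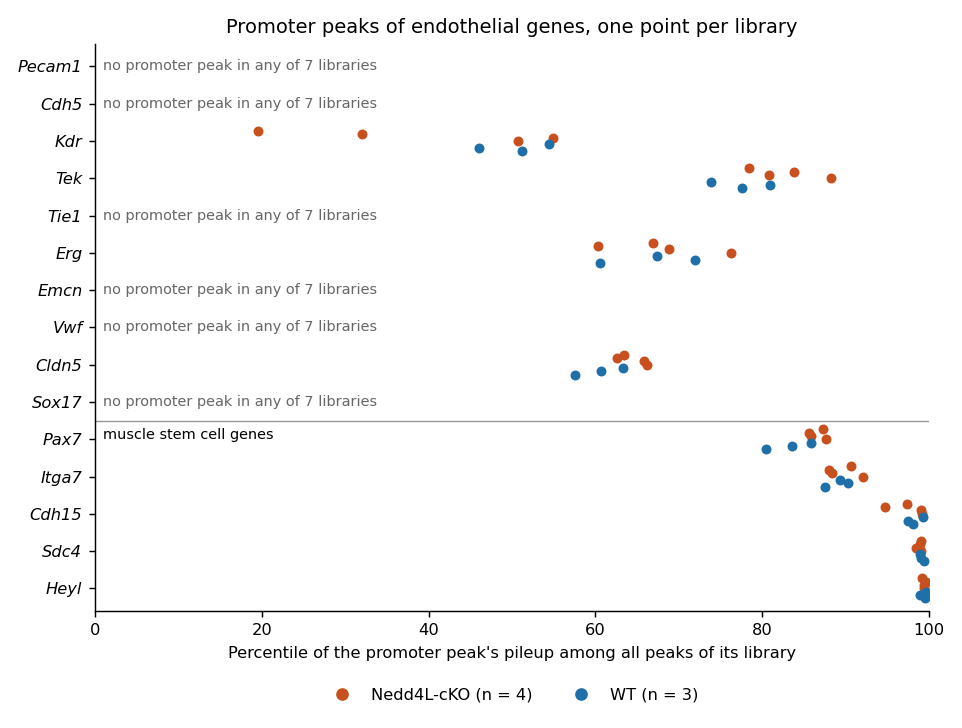
Percentile of the promoter peak's pileup among all peaks of the same library (x axis, 0 lowest to 100 highest), 1 point per library, for the 10 endothelial genes and, under the line, 5 of the 15 muscle stem cell genes: Pax7, Itga7 and the 3 with the highest medians. The promoter peaks of Kdr, Tek, Erg and Cldn5 lie between 19.5 and 88.2, those of the 5 genes between 80.4 and 99.7, and 6 endothelial genes have no point. Muscle stem cell genes that are not shown stand lower. The lowest median of the 15 is 71.8, and Calcr, Pax3 and Vcam1 lie below Tek by median.

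The height of a promoter peak was read from its pileup, the mean coverage of tags over the peak. As pileup is not scaled to depth, it was turned into a percentile among all peaks of the same library, where 0 is the lowest and 100 the highest. The -log10 q of the peak, its significance over local background as called by MACS2, is given beside it. Differences between genotypes were tested with limma on normal scores of the ranks, where 1 unit is 1 SD of the ranked regions, over 53245 regions called in all libraries.

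Among the junction genes, Pecam1 and Cdh5 had no promoter peak and Cldn5 had one. Pecam1 (chr11:106654213-106715281, minus strand) encodes the adhesion molecule CD31. Its nearest peak lay 5008 to 5335 bp from the TSS in every library. Cdh5 (chr8:104101613-104144504, plus strand) encodes VE-cadherin, the adherens junction protein of endothelium. Its nearest peak lay 4471 to 9904 bp from the TSS.

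Cldn5 (chr16:18776847-18778262, plus strand) encodes claudin-5, the main tight junction protein of endothelium. The percentile of its promoter peak was 63.4, 62.5, 65.9 and 66.2 in Nedd4L-cKO and 63.3, 60.7 and 57.6 in WT. The -log10 q was 8.41, 5.38, 6.78 and 6.94 in Nedd4L-cKO and 6.72, 6.07 and 5.31 in WT. The percentiles of the genotypes overlapped, with the lowest value in WT replicate 3. The difference between Nedd4L-cKO and WT was 0.11 normal-score units (SE 0.0895, limma adjusted p = 1.00), and 0.07 without WT replicate 3. The region, chr16:18776886-18778705, covers nearly the whole of this short gene.

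Of the 3 receptor tyrosine kinases, Kdr and Tek had a promoter peak and Tie1 had none. Kdr (chr5:75932827-75979072, minus strand) encodes VEGF receptor 2, the main receptor through which VEGF-A acts on endothelium. The percentile of its promoter peak was 19.5, 32.0, 55.0 and 50.7 in Nedd4L-cKO and 54.5, 46.1 and 51.3 in WT. The -log10 q was 2.87, 3.88, 6.54 and 6.65 in Nedd4L-cKO and 7.03, 5.80 and 7.02 in WT. Nedd4L-cKO replicates 1 and 2 were the low ones in both measures. Replicates 3 and 4 of that genotype lay within the WT range of -log10 q. By percentile replicate 4 lay within it, and replicate 3 was just above the highest WT value. The difference was -0.39 normal-score units (SE 0.262, limma adjusted p = 1.00), or -0.38 without WT replicate 3. Its size rested on single libraries, with -0.18 without Nedd4L-cKO replicate 1 and -0.57 without Nedd4L-cKO replicate 3. Kdr had the lowest median percentile of the 4 open promoters, 50.7, and its region, chr5:75977614-75979298, also overlaps the annotated long noncoding RNA Gm32727.

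Tek (chr4:94739086-94874976, plus strand) encodes TIE2, the receptor of the angiopoietins. The percentile of its promoter peak was 78.4, 83.9, 80.9 and 88.2 in Nedd4L-cKO and 73.8, 81.0 and 77.5 in WT. The -log10 q was 10.7, 11.1, 11.7 and 16.7 in Nedd4L-cKO and 9.27, 11.8 and 9.54 in WT. Nedd4L-cKO replicate 4 was the highest in both, and the genotypes overlapped. The difference was 0.22 normal-score units (SE 0.118, limma adjusted p = 1.00), and 0.22 without WT replicate 3. With a median of 80.9, Tek had the highest promoter peak of the 10 genes. Tie1 (chr4:118471191-118489849, minus strand), an orphan receptor that modulates TIE2 signalling, had its nearest peak 23562 to 23707 bp from the TSS, beyond the far end of the gene.

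Of the transcription factor genes, Erg had a promoter peak and Sox17 had none. Erg (chr16:95359169-95586600, minus strand) encodes an ETS factor that maintains endothelial identity. The percentile of its promoter peak was 67.0, 60.4, 68.8 and 76.3 in Nedd4L-cKO and 67.4, 72.0 and 60.6 in WT. The -log10 q was 10.0, 5.28, 9.69 and 13.6 in Nedd4L-cKO and 9.49, 12.1 and 7.27 in WT. Both genotypes spanned nearly the same range, and the difference was 0.05 normal-score units (SE 0.134, adjusted p = 1.00 in limma). It was -0.05 without WT replicate 3 and -0.02 without Nedd4L-cKO replicate 4. The peak stood at the outermost of the annotated start sites, chr16:95584753-95586467. At the start sites deeper in the gene, at 95530365 and 95459348, there was no peak within 1 kb in any library.

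Sox17 (chr1:4490928-4497426, minus strand) encodes a SOX factor of arterial endothelium. No library had a peak in its span or within 10 kb, and the nearest peak lay 73796 to 73919 bp from the TSS.

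Emcn and Vwf had no promoter peak. Emcn (chr3:137341062-137431069, plus strand) encodes endomucin, a sialomucin of capillary and venous endothelium. Its nearest peak lay between 10641 and 68921 bp from the TSS, depending on the library. Vwf (chr6:125552948-125686679, plus strand) encodes von Willebrand factor, the clotting protein that endothelium stores and secretes. Its nearest peak lay 11774 to 19420 bp from the TSS.

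The 4 open promoters were set beside those of other genes. Among the 13594 promoters open in all libraries, ordered by median percentile, Kdr stood at percentile 8.33, Cldn5 at 14.7, Erg at 17.4 and Tek at 35.5. The median over the 4 genes was 16.1. The muscle stem cell list, 15 genes of which all 15 had a promoter peak in every library, had a median of 51.0 and a range of 21.7 to 97.8 on the same scale, so the lists overlapped. Its 3 lowest, Calcr at 21.7, Pax3 at 22.2 and Vcam1 at 35.04, stood below Tek. Its 3 highest promoters were those of Heyl, a Notch target, of Sdc4, the syndecan-4 proteoglycan, and of Cdh15, M-cadherin, with median pileup percentiles among all peaks of 99.4, 99.0 and 98.1. Pax7, whose locus drives Cre, had a median pileup percentile of 85.8. These positions describe the 4 genes and carry no test. The order among the 4 depended on the measure: by fold enrichment over local background the medians were 83.9 for Erg, 72.6 for Tek, 71.6 for Kdr and 52.2 for Cldn5.

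The antigens of the sort were compared with their gate. Itga7, whose product was the positive marker, had a promoter peak in all libraries, with a median pileup percentile of 89.3. Itga7 was called in 3 libraries at a -log10 q of at least 5, and in 6 with a TSS window of 0.25 kb. The 4 genes whose products were gated out, Pecam1 (CD31), Ptprc (CD45), Itgam (CD11b) and Ly6a (SCA1), had no promoter peak in any library. Of all genes with a placed TSS, 31.3% had none in any library and 63.4% had one in all. Pecam1 is counted both here and among the 10 genes.

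Further endothelial genes and genes of other cells in muscle were counted in the same way. Of 30 other endothelial genes, 15 had a promoter peak in all libraries, 4 in some and 11 in none, and between 15 and 18 were called per library. The highest were S1pr1, a receptor for sphingosine-1-phosphate, Rasip1, which acts in vessel lumen formation, and Prox1, a transcription factor of lymphatic endothelium that is also used in other tissues, with median pileup percentiles of 91.9, 91.9 and 89.3. All 10 immune genes, among them Ptprc and Itgam, had no promoter peak in any library. Of 10 fibro-adipogenic and mural genes, 5 had one in all libraries, 2 in some and 3, Pdgfra, Ly6a and Pi16, in none, with 5 to 7 called per library. The highest of these were the collagen gene Col1a1, the mural receptor gene Pdgfrb and Dpt, with medians of 85.7, 82.1 and 80.0. Of 10 myofibre genes, 6 had one in all libraries, 2 in some and 2, Myl1 and Mb, in none, with 6 to 8 called per library. The highest were the fast fibre genes Actn3, Myh1 and Myh2, at 97.0, 82.8 and 80.9, where Myh2 was called in 6 of 7 libraries. Over all genes with a placed TSS, 63.4% had a promoter peak in all libraries and 31.3% in none. The lists in this paragraph did not exceed the first share, so promoter peaks in all libraries were no more frequent in them than in genes in general. For no peak in any library, 3 of 10 fibro-adipogenic and mural genes and 2 of 10 myofibre genes were below the second share. The 11 of 30 other endothelial genes and all 10 immune genes were above it. The part of other cells in the sort in any of these values was not tested.

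**Figure D2:**
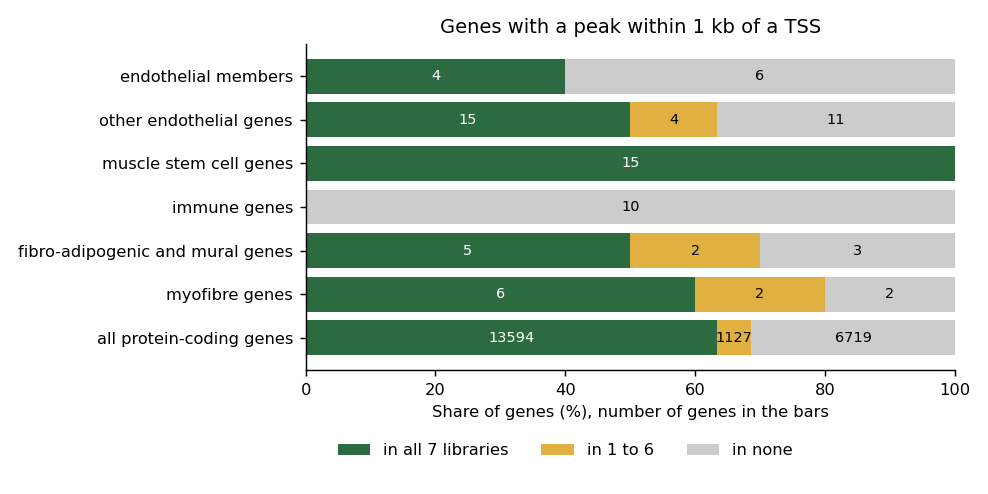
Share of the genes of each list (x axis, percent, with the number of genes in the bars) that had a peak within 1 kb of a TSS in all 7 libraries, in 1 to 6 or in none. The endothelial genes split into 4 and 6, all 15 muscle stem cell genes were open in every library, and all 10 immune genes were called in none.

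The promoter sequences differed in CpG content along with the calls over all genes. In the window from 250 bases before to 50 after a TSS, the observed over expected ratio of CpG was 0.94 at the outer Erg start, 0.69 at Kdr, 0.48 at Cldn5, 0.29 at Tie1, 0.16 at Emcn and 0.15 at Tek. Of 21263 such windows in all, those with a ratio of at least 0.6 had a peak within 1 kb of the TSS in all libraries in 94.3% of 10137 cases. Those under 0.6 had one in 31.4% of 11126. The outer Erg start and Kdr fell in the first class. Cldn5, Tie1, Emcn and Tek fell in the second, in which 60.5% had no peak in any library, and of these Cldn5 and Tek had a peak in every library. Tek had the lowest ratio of the 6 genes, at percentile 16.2 of all windows. The inner Erg starts had ratios of 0.19 and 0.28 and no peak.

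Short motifs were searched on both strands of the same windows. The ETS motif CAGGAAG was found once in the Emcn window and once in the Erg window at 95459348, and in 12.5% of all windows. The ETS motif CCGGAAG, which is in 11.6% of all windows, was in 0 of the 8 windows of these genes. The GATA motif AGATAAG was found once in the Tek window and once in the Erg window at 95459348, against 2.64% of all windows. The SOX motif ACAAAG was found once in the Tek window, and is in 16.8% of all. The E box CAGCTG, a palindrome in 15.6% of all windows, was in none of the 8. These motifs do not overlap each other in a way that 1 site could count for 2 of them, and a match is only a run of letters. The windows of Kdr, Tie1 and Cldn5 and the outer window of Erg held none of them.

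**Figure D3:**
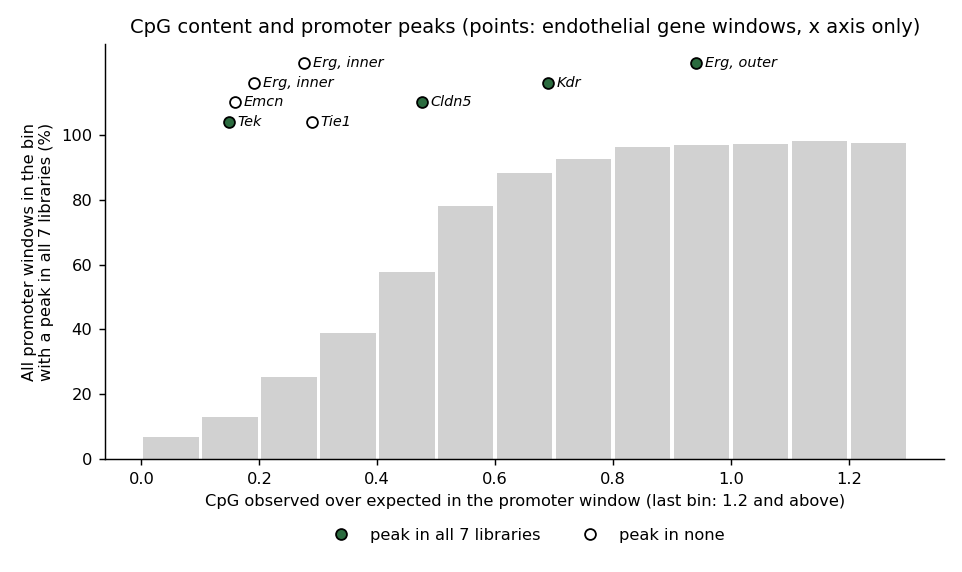
Share of all RefSeq promoter windows with a peak within 1 kb of the TSS in all 7 libraries (y axis, percent) by the observed over expected ratio of CpG in the window (x axis, bins of 0.1). Points above the bars show the ratio of the 8 windows of Kdr, Tek, Cldn5, Erg, Emcn and Tie1 on the x axis alone, filled where the window had a peak in all libraries. The bars rise from 6.88% to 98.0%, and Tek, at 0.15, is the filled point farthest to the left.

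Away from the promoters, accessible regions were found inside several of the genes without a promoter peak. Peaks that overlapped between libraries were merged into regions, which gave 60 in the windows of the 10 genes. Of these, 4 were the promoter regions, 48 lay inside a gene span, 5 in the 10 kb downstream and 3 in the 10 kb upstream. There were 35 called in all libraries (58.3%, against 56% of the 95163 regions of the genome), 18 in 2 to 6 libraries and 7 in 1 (11.7%, against 14.7%). The share called in all libraries was thus close to that of all regions. Exons and introns were not annotated on this build here, so positions are given from the outermost TSS.

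The highest region of the 10 genes by median pileup percentile was not a promoter. It lay in Tek, 13.5 kb inside the gene at chr4:94751783-94753461, with percentiles of 91.9, 90.4, 91.8 and 94.6 in Nedd4L-cKO and 92.7, 90.1 and 91.8 in WT, so that its genotypes overlapped. The next was in Pecam1, 40.2 kb inside the gene at chr11:106674371-106675823, with 89.3, 89.9, 89.1 and 92.4 in Nedd4L-cKO and 91.1, 91.2 and 89.7 in WT. Pecam1 thus had no promoter peak but had a region of at least percentile 89.1 in every library. The third was in Vwf, 20.1 kb inside the gene at chr6:125572227-125573957, with 87.7, 89.5, 89.0 and 91.1 in Nedd4L-cKO and 91.9, 90.6 and 84.9 in WT. Erg had its highest region by pileup near the 3′ end, 219 kb from the outermost TSS at chr16:95366850-95368334, with 89.5, 86.4, 85.0 and 90.2 in Nedd4L-cKO and 85.5, 83.02 and 89.4 in WT. The limma differences of these 4 regions were 0.05, -0.03, -0.0036 and 0.09 normal-score units, with SEs of 0.0991, 0.0857, 0.115 and 0.113, and each adjusted p was 1.00. By fold enrichment the order was another: among regions called in all libraries the highest medians were 95.5 and 93.9 in Erg, at chr16:95532242-95533709 and chr16:95556251-95557560, and 93.7 in Tek, at chr4:94788740-94789712, while the 4 regions above had 85.4 in Tek, 68.4 in Pecam1, 75.6 in Vwf and 69.6 in Erg.

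The regions of the other genes were lower. Tie1 had 1 region, in the downstream flank at chr4:118465619-118466287, with percentiles of 9.77, 12.6, 24.1 and 27.2 in Nedd4L-cKO and 39.0, 24.8 and 24.0 in WT. It had the lowest unadjusted p among the regions of the 10 genes (-0.47 normal-score units, SE 0.211, limma unadjusted p = 0.0558, adjusted p = 1.00), and its genotypes overlapped. The highest region of Cdh5 that was called in all libraries lay in the upstream flank at chr8:104091151-104092025, at a median of 23.8, where it overlaps the long noncoding RNA Gm29682, and the regions inside Cdh5 were each missing from at least 1 library. Emcn had 2 regions, called in 1 and in 2 libraries. Sox17 had 0. The downstream flank of Vwf included a region at the promoter of Ano2, a neighbouring gene, which says nothing of Vwf.

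**Figure D4:**
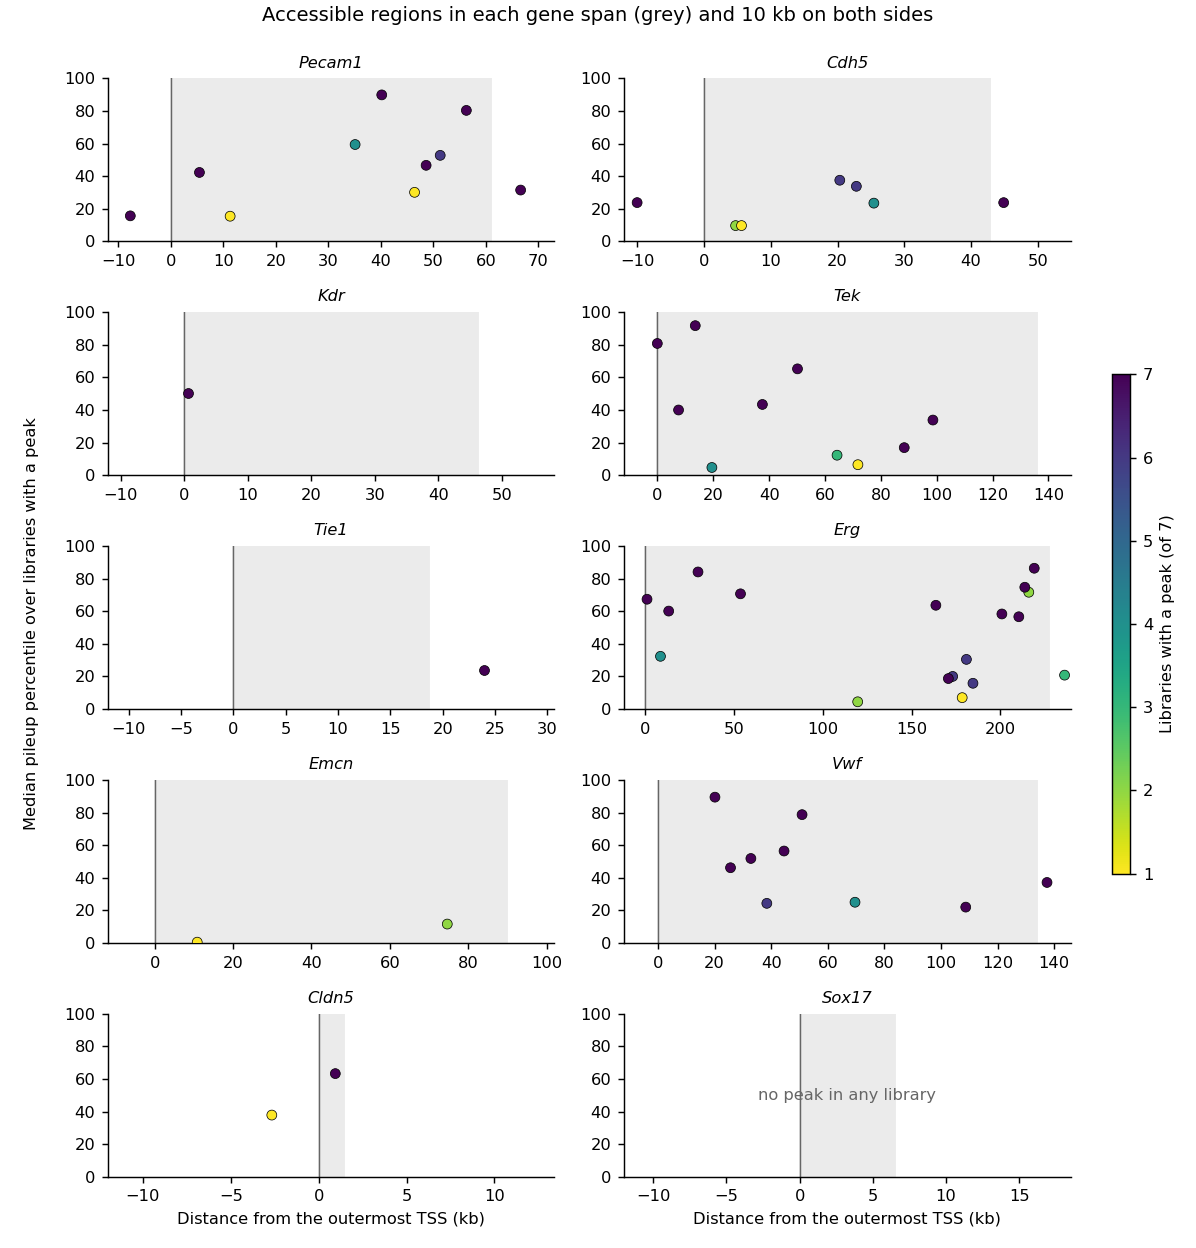
Accessible regions in the window of each of the 10 genes, by distance from the outermost TSS in kb (x axis, grey marks the gene span) and median pileup percentile over the libraries with a peak (y axis), coloured by the number of libraries. Tek, Pecam1, Vwf and Erg have regions above 80 inside the gene, while Kdr and Tie1 have 1 region each and Sox17 has none.

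The number of peaks per window was compared between genotypes with an exact permutation test, two-sided, over the 7 libraries, for which the smallest possible p is 0.0286. Over all genes 0.361% reached it, and of the 10 endothelial genes 0 did. The counts of Pecam1 were 9, 9, 8 and 9 in Nedd4L-cKO and 8, 8 and 8 in WT (exact p = 0.143). Vwf had 9, 8, 9 and 8 peaks in Nedd4L-cKO and 9, 9 and 10 in WT (exact p = 0.286), and Emcn had 1, 0, 0 and 0 and 0, 1 and 1 (exact p = 0.486). The mean was higher in Nedd4L-cKO for Pecam1 and higher in WT for Vwf and Emcn, by less than 1 peak each, and the counts of the genotypes overlapped in all 3. Cdh5 had 5, 3, 6 and 6 peaks in Nedd4L-cKO and 6, 4 and 3 in WT (exact p = 0.571), and Erg had 15, 14, 13 and 14 and 14, 13 and 17 (exact p = 0.686). Tek had 7, 10, 8 and 8 peaks in Nedd4L-cKO and 8, 9 and 7 in WT, and Cldn5 had 2 in Nedd4L-cKO replicate 3 and 1 in every other library (exact p = 1 for both). Kdr and Tie1 had 1 peak in every library and Sox17 had 0. All p-values were 1 after Benjamini-Hochberg adjustment over the 21887 genes.

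Summed over the 10 windows, there were 49, 47, 48 and 48 peaks in Nedd4L-cKO and 48, 47 and 49 in WT, with the same mean of 48 in both. The length covered by peaks was 41.2 ± 3.22 kb (SD, n = 4) in Nedd4L-cKO and 40.7 ± 1.90 kb (SD, n = 3) in WT. Nedd4L-cKO replicate 4, the deepest library, covered the most, 45.8 kb. Long windows hold more peaks by length alone, so the counts were also set per 100 kb. The median gene held 4.41 peaks per 100 kb. Pecam1 held 9.87, Cdh5 7.95, Vwf 5.85, Erg 5.66, Tek 5.13, Cldn5 4.67, Tie1 2.59 and Kdr 1.51 peaks per 100 kb. Emcn and Sox17 had a median of 0. Sox17 had no peak in any library, as did 20.3% of all genes, while Emcn had 1 in 3 libraries. Pecam1, with the highest density, and Kdr, with the lowest among those with a peak in every library, thus stood in the reverse order of their promoter calls.

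**Figure D5:**
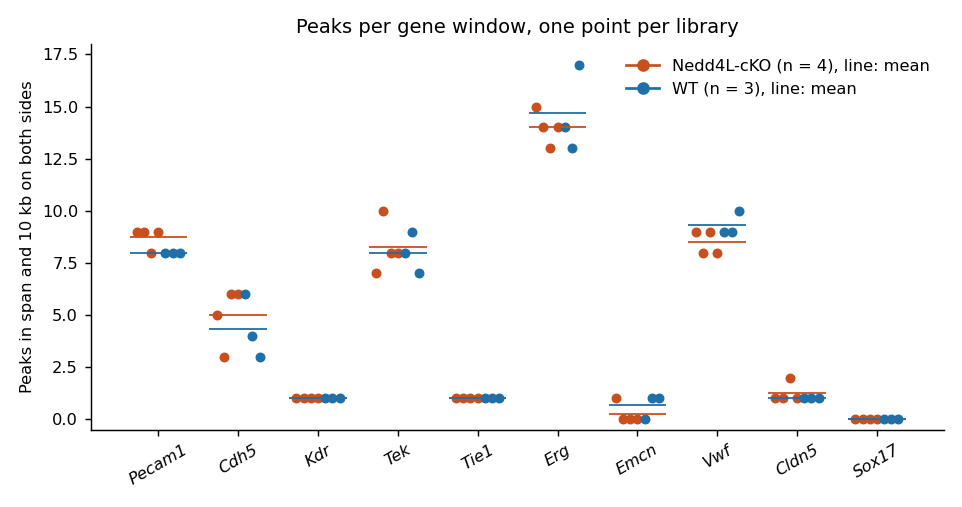
Peaks in the span of each gene and 10 kb on both sides (y axis, number of peaks), 1 point per library, with lines at the mean of each genotype. Points of Nedd4L-cKO and WT overlap for each of the 10 genes, from 0 peaks at Sox17 to 13 to 17 at Erg.

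Between the genotypes, no region of the 10 genes passed the test. Of the 35 regions tested with limma, 0 had an adjusted p under 0.05, as did 0% of all 53245. At an unadjusted p under 0.05 the number was also 0, where the share over all regions was 2.71%. The difference was positive, that is higher in Nedd4L-cKO, in 19 of the 35, beside 49.6% of all regions, and its median was 0.03 normal-score units, beside -0.0013 over all regions. Without WT replicate 1 it was positive in 16 of 36 regions with a median of -0.013, and the median was 0.0075 without Nedd4L-cKO replicate 1 and 0.07 without WT replicate 3. Of the 60 regions, 0 were called in all Nedd4L-cKO and no WT libraries (0.0694% of all regions), and 0 in all WT and no Nedd4L-cKO libraries (0.082%).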

How the data were processed

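ATAC-seq of 4 Nedd4L-cKO and 3 WT libraries was analysed from the broad peak lists. Per the study's methods and processing notes, the authors trimmed reads with Trimmomatic 0.39, aligned them to mm10 with BWA 0.7.17, filtered them with SAMtools, removed duplicates with Picard 2.26.3 and called peaks for each library alone with MACS2 2.2.7.1. Per the file headers, tags were shifted by -100 bp and extended to 200 bp, with a broad q cutoff of 0.1, a narrow cutoff of 0.05 and 1 tag kept per position. The deposited pileup is a signal, the mean coverage over a peak, not scaled to depth. The fold enrichment, as deposited, is a ratio to the local background within a library. Each p-value and q-value was deposited as -log10. The gapped list deposited by the authors marks narrow peaks inside broad ones and served only in an alternative. Values were ranked within a library because pileup grows with depth. A change in depth also moves which weak peaks are called. The percentiles are taken among called peaks, so they can still vary with depth.

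Gene spans were those of RefSeq on GRCm38, and TSSs those of the RefSeq promoter table and the outer span end by strand. The strand came from RefSeq for 17492 genes and otherwise from GENCODE by symbol. No strand was found for 447 genes, which were left out of promoter counts. Peaks that overlapped by at least 1 bp were merged into 95163 regions. Percentiles, exact permutation tests and figures were made in Python 3.11.15 (pandas 2.3.3, numpy 2.4.6, matplotlib 3.10.9 and scipy 1.17.1). Ranks in regions called in all libraries were fitted with limma 3.58.1 in R 4.3.3 (lmFit and eBayes, no covariate, Benjamini-Hochberg adjustment over all regions). The code of this fit was checked on simulated normal values with a known shift. These were not ranked and had the same spread in every region, unlike the data. Peaks of equal ends and pileup were found in 0 pairs of libraries, so no peak list was a copy of another. Each library was taken as 1 replicate because the paper counts mice, which this check cannot show.

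The members and lists were chosen with earlier results of these data known. Named were all 10 genes, their promoter peak and highest region, any region with an unadjusted p under 0.05 or that separated the genotypes, the 3 genes with the highest promoter percentile of each other list, genes without a promoter peak where at most 5 lacked one, and the sort antigens. Other regions, neighbouring genes, Pax7, Calcr, Pax3 and Vcam1 were named after their values were seen. The alternatives were other TSS windows, a -log10 q of at least 5, peaks that hold a narrow peak, equal numbers of peaks, other ranks, windows and overlaps, limma options, a depth covariate, a replicate block and leaving out each library.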

Additional observations from a re-analysis of the deposited data

Results flagged for a closer look

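In 4 of 26 measures of the endothelial genes, 1 of the 4 Nedd4L-cKO libraries lay farther from the others than Dixon's 95% critical ratio allows, and chance flags about 1 group in 20. The Tek promoter had a -log10 q of 16.7 in Nedd4L-cKO replicate 4, the deepest library, against 10.7 to 11.7 in the other 3. The Pecam1 window held 8 peaks in Nedd4L-cKO replicate 3 and 9 in the others. The Emcn window held 1 peak in Nedd4L-cKO replicate 1 and 0 in the others. The Cldn5 window held 2 peaks in Nedd4L-cKO replicate 3 and 1 in the others. The last 3 are differences of a single peak between whole numbers. There, 3 equal counts beside 1 other always give a ratio of 1, so the rate of 1 in 20 does not apply to them.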

How the results depend on the processing

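The 6 genes without a promoter peak stayed without one in all alternatives, and 0 regions or windows passed an adjusted p of 0.05 in any. Genes with a promoter peak in every library numbered 2 (Kdr, Tek) with a TSS window of 0.25 kb, where Erg was called in 4 and Cldn5 in 5 libraries. With a -log10 q of at least 5 Kdr was called in 5 libraries, and the difference in summed peaks became -1.17. The muscle stem cell genes called in every library then fell from 15 to 11. The counts became 6 for other endothelial genes, 0 for sort antigens, 3 for fibro-adipogenic and mural genes and 4 for myofibre genes. With a TSS window of 2.5 kb, 2 immune genes, Spi1 and Cd68, were called in every library, as were Pdgfra and Pi16. Ly6a was then called in 1 library and Csf1r in 6. The counts became 19 for other endothelial genes, 7 for fibro-adipogenic and mural genes and 7 for myofibre genes. Percentiles moved with the measure: by fold enrichment to 71.6 for Kdr, 72.6 for Tek, 83.9 for Erg and 52.2 for Cldn5, by -log10 q to 77.3 for Erg, and among promoter peaks alone to 13.1, 42.8, 25.1 and 19.9 in that order. Regions at an unadjusted p under 0.05 numbered 2 by fold enrichment, 1 with trend and robust options, 2 with a depth covariate and 0 to 2 on leaving out 1 library (1 without Nedd4L-cKO replicate 1, 1 without replicate 2, 2 without replicate 3 and 1 without WT replicate 3). The Erg promoter difference turned to -0.0047 with the depth covariate, -0.11 by fold enrichment and -0.016 with the replicate block, and was -0.0498 to 0.13 on leaving out 1 library. Regions called in all WT and no Nedd4L-cKO libraries ranged from 0 to 1 on leaving out 1 library: 1 without Nedd4L-cKO replicate 1 (Vwf) and 1 without WT replicate 1 (Emcn). The cause of these changes was not tested.

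Deviations from the genotype means did not stand out in same-numbered libraries (r = -0.218, 0.0978 and -0.241). In differently numbered ones r ranged from -0.283 to 0.298. The numbers were therefore not taken as pairs, and whether any libraries were prepared together was not tested. With the replicate block, 0 regions had an unadjusted p under 0.05 and 0 windows passed. Peaks below the calling threshold are not seen at this depth, and no list of artifact-prone regions was used.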
